A study of Mus musculus with 2 samples.

Results

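The mitosis genes are 50 listed genes that cells use to enter, carry out and leave mitosis, from the kinases that start it to the proteins that part the daughter cells. They were listed by name, with earlier results of these data known, and all 50 were among the 11691 genes of the table of unique molecular identifiers (UMIs, counted captured transcripts), above 0 in both libraries. The cells came from C57/BL6 concepti at E8.5 (Theiler stage 12, 5 to 7 somite pairs), in which yolk sac (YS) and intraembryonic tissues were parted and cultured as explants for 9 to 10 days with SCF, IL-3 and FLT3 ligand, each at 100 ng/ml. The concepti were pooled, and Em-Ex and YS-Ex came from the same ones. Both libraries, Em-Ex for the intraembryonic explants and YS-Ex for the yolk sac explants, thus hold cells after the same cytokine culture and the same sort for CD31+CD45+c-Kit+CD41- cells. Each library is 1 droplet capture, so no test was run, and the 95% intervals (exact Poisson for sums of UMIs, exact Clopper-Pearson for shares of cells) cover counting error only.

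A cell that divides doubles its DNA in S phase and then, under cyclin B and Cdk1, condenses its chromosomes, builds a spindle, attaches each chromosome to it through the kinetochore, and degrades cyclin B and securin through the anaphase-promoting complex (APC/C) before it splits by cytokinesis. Most of these genes are transcribed late in the cycle and their products are destroyed as it ends, so their transcripts mark cells in G2 and mitosis. In blood formation, progenitors divide often, and mature granulated cells divide little.

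After the filter stated in the methods (1000 to 5000 genes, at most 5% mitochondrial UMIs), 3071 Em-Ex cells with a median of 12341 UMIs and 2087 YS-Ex cells with a median of 11729 UMIs were left, of which 33 and 32 carried a barcode that also occurred in the other library. All 11 mast cell markers of the list were above 0 in both libraries, at a summed level of 29268 CPM (Em-Ex) and 44354 CPM (YS-Ex). The level of a gene is its CPM, the UMIs it had in the cells as a whole for each 1000000 UMIs of all genes in them. Levels of different genes are not compared with each other, since UMI counts depend on how well a transcript is captured.

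The 50 genes together made up more of the Em-Ex than of the YS-Ex transcripts. Their summed level was 3254 CPM in Em-Ex against 2247 CPM in YS-Ex (1.45-fold, 1.43–1.46), and the 28 members with transcripts of at least 3000 bases alone gave 1.03-fold (1.02–1.05). For a share of dividing cells, each cell was thinned to 3000 UMIs so that depth did not decide the call, and a cell was called mitosis-high when it kept at least 6 UMIs of the 50 genes, a cut that Otsu's method set over both libraries together. In Em-Ex 1051 of 3071 cells were mitosis-high (34.2%, 32.5–35.9%), and in YS-Ex 371 of 2087 (17.8%, 16.2–19.5%), a difference of 16.4 percentage points (14.1–18.8). Cells within 2 UMIs of the cut made up 15.1% of each library, so the call is a range and not a type. With a cut of 80 member UMIs per 10000 on unthinned cells, which keeps the cells with the highest levels alone, the difference was 2.75 points.

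**Figure D1:**
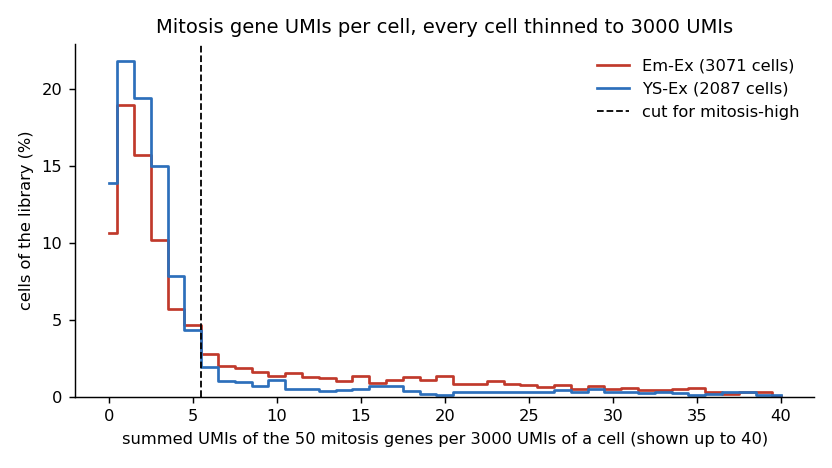
Share of the cells of each library (y axis, %) by the number of UMIs of the 50 mitosis genes among 3000 UMIs drawn from each cell (x axis, shown up to 40), for Em-Ex (red) and YS-Ex (blue), with the cut for mitosis-high cells dashed. Most cells of both libraries lie at 0 to 4 UMIs, and above the cut the Em-Ex line runs higher over most of the range, with 34.2% of its cells there against 17.8% in YS-Ex.

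Mitosis-high cells held more UMIs than the others. Their median was 18101 UMIs in Em-Ex, where the other cells had 10446, and 17673 against 11100 UMIs in YS-Ex. In each library a median of 29 of the 50 genes had a UMI in these cells, against 5 in the rest. Per cell, the 50 genes reached a median of 54.3 UMIs per 10000 in Em-Ex mitosis-high cells and 57.3 in those of YS-Ex, against 6.11 and 6.09 in the other cells. Pooled over mitosis-high cells the summed level was 6172 CPM in Em-Ex against 7048 CPM in YS-Ex, as a description, since these cells were chosen by the same genes. By role their median ratio of Em-Ex to YS-Ex in these cells ran from 0.514 for the cytokinesis genes to 1.30 for the kinases and cyclins and 1.59 for the degradation genes. The cytokinesis genes have transcripts of 3026 to 5564 bases and the degradation genes of 1793 to 2191 bases. Over all genes the ratio between the libraries was also lower for long transcripts (below), and the part of length in this order was not tested. *Kit*, the SCF receptor and a gene of the sort, was at 175 CPM in mitosis-high and 335 CPM in other Em-Ex cells, and at 664 CPM and 1059 CPM in YS-Ex. Mast cell markers together were at 15919 CPM in mitosis-high and 40513 CPM in other Em-Ex cells, and at 30303 CPM and 48844 CPM in YS-Ex. Erythroid markers ran the other way, at 537 CPM and 92.4 CPM in Em-Ex and at 379 CPM and 74.8 CPM in YS-Ex. Neutrophil progenitor markers did so too, at 618 CPM and 116 CPM in Em-Ex and at 84.5 CPM and 19.0 CPM in YS-Ex, while macrophage markers were lower in mitosis-high cells, at 151 CPM and 360 CPM in Em-Ex and at 80.2 CPM and 135 CPM in YS-Ex. Their part in these differences was not tested.

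A list of 28 S phase genes, such as those of DNA replication, gave the same order of the libraries. With at least 3 of their UMIs among 3000, a cut set in the same way, S-high cells made up 39.5% (37.7–41.2%) of Em-Ex and 21.4% (19.6–23.2%) of YS-Ex. Of the mitosis-high cells, 68.1% in Em-Ex and 64.2% in YS-Ex were also S-high, while 496 Em-Ex and 208 YS-Ex cells were S-high alone. The cut is low, and 20.6% of Em-Ex and 17.6% of YS-Ex cells had 2 or 3 UMIs of these genes. With a cut 1 UMI higher, chosen after seeing the data, the shares were 31.7% and 15.4%. In cells that were not mitosis-high the S phase genes summed to 824 CPM (Em-Ex) and 446 CPM (YS-Ex).

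Cells rich in the mast cell protease *Cpa3* were less often mitosis-high in both libraries. *Cpa3* encodes carboxypeptidase A3 of the mast cell granule, and cells with at least 40 *Cpa3* UMIs per 10000 are called Cpa3-high. In Em-Ex 536 of 2200 Cpa3-high cells were mitosis-high (24.4%, 22.6–26.2%) and 515 of 871 Cpa3-low cells (59.1%, 55.8–62.4%), a difference of -34.8 points (-38.4 to -31.0). In YS-Ex the shares were 316 of 1946 Cpa3-high cells (16.2%, 14.6–17.9%) and 55 of 141 Cpa3-low cells (39.0%, 30.9–47.6%), a difference of -22.8 points (-31.2 to -14.9). With the cut of 80 member UMIs per 10000 on unthinned cells, the differences were -8.98 points (-11.7 to -6.44) and -11.1 points (-18.2 to -5.68). The summed level of the 50 genes moved with the share, at 2512 CPM in Cpa3-high and 4575 CPM in Cpa3-low Em-Ex cells (ratio 0.549) and at 2082 CPM and 4576 CPM in YS-Ex (ratio 0.455).

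The share was lower at each step of *Cpa3*. In Em-Ex it was 69.0% (64.9–72.8%) among cells with under 5 *Cpa3* UMIs per 10000, 51.5% from 5 to 20, 39.6% from 20 to 40, 36.2% from 40 to 80, 25.3% from 80 to 160 and 11.7% (9.39–14.4%) at 160 or more. YS-Ex followed the same order at 57.5% (40.9–73.0%), 37.9%, 29.2%, 25.8%, 20.1% and 11.1% (9.24–13.3%). At a like *Cpa3* level the libraries stood closer than over all cells. Em-Ex was 10.4 points higher (3.46–16.7) from 40 to 80 and 5.23 points higher (1.08–9.30) from 80 to 160, and at 160 or more the difference was 0.588 points (-2.47 to 3.80), which its interval does not tell from 0. In the 3 classes below 40 Em-Ex was 11.5, 13.5 and 10.4 points higher. Their intervals include 0, with 29 to 72 YS-Ex cells in each. The summed level of the 50 genes was lower in Em-Ex in 3 of the 6 classes, at 4165 CPM against 4398 CPM from 5 to 20, 3466 CPM against 4485 CPM from 20 to 40 and 1338 CPM against 1519 CPM at 160 or more. The cells of the lowest class also held more UMIs, at a median of 19888 (Em-Ex) and 13767 (YS-Ex) against 10244 and 11872 in the highest class, and the part of cell size or RNA content was not tested beyond the thinning.

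**Figure D2:**
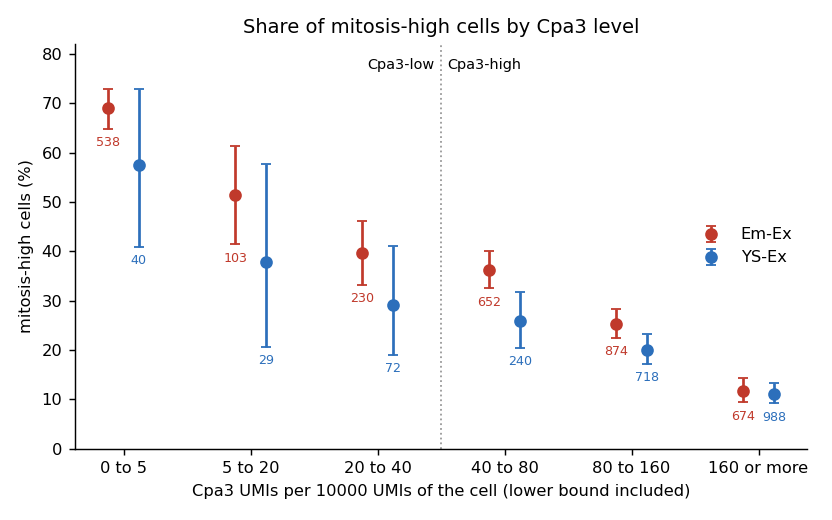
Share of mitosis-high cells (y axis, %) in classes of *Cpa3* UMIs per 10000 UMIs of the cell (x axis), for Em-Ex (red) and YS-Ex (blue), with exact 95% intervals and the number of cells under each point. The share runs from 69.0% down to 11.7% in Em-Ex and from 57.5% to 11.1% in YS-Ex across the 6 classes, and the libraries meet in the highest class.

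The make-up of the libraries differed along the same axis. Cpa3-high cells were 71.6% of Em-Ex and 93.2% of YS-Ex, and they made up 51.0% (47.9–54.1%) of the mitosis-high cells of Em-Ex and 85.2% (81.1–88.6%) of those of YS-Ex. Within Cpa3-high cells, Em-Ex was 8.12 points higher (5.68–10.5), with a ratio of summed levels of 1.21 (1.19–1.22). From the 28 members with transcripts of at least 3000 bases, a setting chosen after seeing the data, the ratio turned to 0.851 (0.837–0.866) and the difference was 2.40 points (-0.187 to 4.96), and with a cut of 80 member UMIs per 10000 on unthinned cells it was 0.954 points (-0.549 to 2.44). With the Em-Ex shares weighted to the YS-Ex make-up of Cpa3-high and Cpa3-low cells, 26.7% of Em-Ex would be mitosis-high, and with the YS-Ex shares weighted to the Em-Ex make-up, 22.7% of YS-Ex. Mast cell markers were lower in Cpa3-low cells but not absent. Their sum there was 5718 CPM for Em-Ex, where Cpa3-high cells had 42492 CPM. For YS-Ex it was 12155 CPM, where Cpa3-high cells had 46634 CPM. The Cpa3-low cells also held the markers of other cells. Summed over the listed markers, neutrophil progenitor genes were at 938 CPM in Cpa3-low and 13.2 CPM in Cpa3-high Em-Ex cells, macrophage genes at 483 CPM and 142 CPM, and erythroid genes at 745 CPM and 42.9 CPM, with the same order in YS-Ex, where macrophage genes were at 1103 CPM and 52.0 CPM. The stromal markers *Col3a1* and *Dcn* summed to 18.2 CPM and 0.694 CPM in Em-Ex and were listed at 0 in YS-Ex, and the endothelial markers of the list were not analysed here. The part of these cells in the difference was not tested.

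In Em-Ex, cells with *Mpo*, the myeloperoxidase of neutrophil granules, were mitosis-high more often than any *Cpa3* class. Among Cpa3-low Em-Ex cells, 162 of 206 with at least 2 *Mpo* UMIs per 10000 were mitosis-high (78.6%, 72.4–84.0%), against 353 of 665 below that level (53.1%, 49.2–56.9%). Their summed level was no higher than that of the cells with less *Mpo*, at 4451 CPM against 4631 CPM. Of the 50 genes, 0 were past 1.5-fold higher in the *Mpo* cells, where 7.75% of all 8417 genes compared were, and 3 were past it lower (14.5% of all genes), namely *Kif23* (0.514), *Plk1* (0.641) and *Nusap1* (0.660). Of the 28 S phase genes 9 were past 1.5-fold higher. The *Mpo* cells also held a median of 23126 UMIs against 14741, with mast cell markers at 954 CPM against 7875 CPM, erythroid markers at 13.4 CPM against 1077 CPM and macrophage markers at 83.7 CPM against 664 CPM, and the part of these differences was not tested. In YS-Ex 13 Cpa3-low cells had *Mpo* at this level, and 9 of them were mitosis-high (69.2%, 38.6–90.9%).

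The members went together over cells to different degrees. As a description over 5158 cells, which share 2 libraries and differ in depth, the log-normalized level of each gene was set against the sum of the other 49. Pearson's r had a median of 0.584 and ran from 0.121 (*Kif23*) to 0.836 (*Birc5*, the survivin subunit of the chromosomal passenger complex), and it was above 0.5 for 34 of the 50. Among 4668 other genes with at least 20 CPM the median was 0.0643, with 46 above 0.5. The 10 with the highest r to the summed members were *Hmgb2* (0.789), *Ccna2* (0.756), *2810417H13Rik* (0.754), *H2afz* (0.742), *Stmn1* (0.734), *Tuba1b* (0.709), *H2afx* (0.682), *Spc24* (0.680), *Smc2* (0.670) and *Ube2s* (0.660). *Ccna2* encodes cyclin A2, *Spc24* a kinetochore subunit, *Smc2* the condensin partner of *Smc4*, *Stmn1* a regulator of microtubules and *Ube2s* a ubiquitin-conjugating enzyme of the APC/C.

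Promoters of genes that peak late in the cell cycle are known for the cell cycle genes homology region (CHR) near the start site, paired with CCAAT boxes to which NF-Y binds. RefSeq promoters (GRCm38.p6, 250 bases before to 50 after the start) were matched for 44 of the 50 genes. On either strand the CHR letters TTTGAA were in 34 of the 44 (77.3%), against 20.2% of all 27025 genes with a promoter in the table, and the letters CCAAT were in 34 (77.3%), against 41.1%. Both were in 28 (63.6%), against 8.0% of all genes. A match of letters is a description of the sequence and not a site in use. For 7 genes the 150 bases before the start are shown, with TTTGAA and CCAAT on either strand in capitals (TTCAAA and ATTGG where the match is on the other strand). *Cdc20*, *Ube2c*, *Cdk1* and *Ccnb1* were among the members highest in Em-Ex against YS-Ex, *Mki67* was past 1.5-fold lower in Em-Ex, though at 1.02 relative to genes of like transcript length (its ratio over the median ratio of all genes in its class of length, a scale chosen after seeing the data), *Top2a* was at 0.817-fold without passing that limit, and *Kif23* was the member that departed most from the others.
*Cdc20* (chr4:118437344-118437493, minus strand): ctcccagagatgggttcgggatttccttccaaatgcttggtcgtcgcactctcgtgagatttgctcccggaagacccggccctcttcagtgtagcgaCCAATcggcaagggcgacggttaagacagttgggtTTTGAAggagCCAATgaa
*Ube2c* (chr2:164769779-164769928, plus strand): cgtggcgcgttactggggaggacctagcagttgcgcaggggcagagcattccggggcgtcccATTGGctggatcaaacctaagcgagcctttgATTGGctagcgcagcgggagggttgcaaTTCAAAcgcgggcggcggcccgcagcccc
*Cdk1* (chr10:69352913-69353062, minus strand): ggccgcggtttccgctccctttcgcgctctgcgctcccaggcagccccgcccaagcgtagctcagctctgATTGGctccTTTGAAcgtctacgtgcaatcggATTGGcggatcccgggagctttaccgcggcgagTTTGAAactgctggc
*Ccnb1* (chr13:100786487-100786636, minus strand): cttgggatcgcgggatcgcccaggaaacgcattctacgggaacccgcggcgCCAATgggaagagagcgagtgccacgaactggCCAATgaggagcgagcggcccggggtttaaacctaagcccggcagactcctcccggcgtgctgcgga
*Top2a* (chr11:99024190-99024339, minus strand): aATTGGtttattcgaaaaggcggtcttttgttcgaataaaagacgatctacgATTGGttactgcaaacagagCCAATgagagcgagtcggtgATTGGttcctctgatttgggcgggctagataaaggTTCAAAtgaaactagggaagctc
*Mki67* (chr7:135716380-135716529, minus strand): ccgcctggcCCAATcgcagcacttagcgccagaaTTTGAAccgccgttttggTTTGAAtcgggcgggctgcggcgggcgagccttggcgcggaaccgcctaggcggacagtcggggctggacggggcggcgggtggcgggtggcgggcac
*Kif23* (chr9:61946800-61946949, minus strand): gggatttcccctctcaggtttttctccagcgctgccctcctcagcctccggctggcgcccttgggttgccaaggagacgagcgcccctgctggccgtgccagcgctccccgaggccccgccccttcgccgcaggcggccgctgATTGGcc
In *Cdc20* the CHR lies 18 bases before the start between a pair of CCAAT boxes at 53 and 8, and in *Ube2c* it lies at 29 with boxes at 88 and 57. *Cdk1* has CHR letters at 71 and 15, and *Ccnb1* has boxes at 99 and 67 with no CHR letters in the stretch. *Top2a* has 4 boxes in the stretch, and *Mki67* has CHR letters at 116 and 98. The stretch of *Kif23* holds 1 box at 7 and no CHR letters. *Top2a*, *Mki67*, *Cdc20*, *Ube2c* and *Cdk1* hold both motifs in the stretch.

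Each member was then read in the cells that the other 49 called mitosis-high, so that no gene took part in its own call. Over both libraries, 45 of the 50 were at least 3-fold higher in these cells than in the rest. *Hmmr*, a spindle protein that binds hyaluronan, was at 88.0 CPM against 0.618 CPM (142-fold, 97.6–216). *Plk1*, the polo kinase of mitotic entry, was at 67.2 CPM against 0.801 CPM (84.0-fold, 60.1–121), and *Nusap1*, a microtubule binder of the spindle, at 152 CPM against 2.49 CPM (60.8-fold, 50.3–74.2). In the phosphatase *Cdc25c*, which activates Cdk1, the ratio was 64.4 (37.3–122), and in *Aspm*, of the spindle poles, 51.3 (33.9–81.5). For these 5 genes 96.8% to 98.8% of all UMIs lay in mitosis-high cells. Called by all 50, mitosis-high cells held 49 of the 50 past 1.5-fold higher and 0 lower in each library, where 24.0% of all genes were higher and 9.23% lower in Em-Ex and 17.2% and 7.24% in YS-Ex, and nothing is read from this since the genes made the call.

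The 5 members under 3-fold were *Kif23*, *Anp32e*, *Lbr*, *Psrc1* and *Ckap5*. *Anp32e*, a histone H2A.Z chaperone, had a ratio of 2.39 (2.29–2.50), *Lbr*, the lamin B receptor of the inner nuclear membrane, 2.45 (2.33–2.58), *Psrc1*, a microtubule regulator, 2.66 (2.24–3.18), and *Ckap5*, a microtubule polymerase, 2.86 (2.61–3.14). *Anp32e*, *Lbr* and *Ckap5* serve cells outside mitosis as well, and are among the 8 members held here to be broadly expressed. The others of these stood above 3-fold, namely *Ncapd2* (9.57), *Cks1b* (6.94), *Tubb4b* (5.11), *Smc4* (5.10) and *Rangap1* (3.96). Read within 1 library, *Ckap5* was at 3.89-fold in Em-Ex and 3.36-fold in YS-Ex, above 3 in each. Just above the limit stood *Cks2*, a small partner of Cdk1, at 3.61 (3.50–3.72).

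*Kif23* was the only member under 2-fold, at 52.5 CPM in mitosis-high and 46.3 CPM in other cells (1.13-fold, 1.06–1.22). It encodes the kinesin of the centralspindlin complex, which works in cytokinesis, and its partner *Racgap1*, not a member, was at 74.2 CPM in mitosis-high and 3.92 CPM in other Em-Ex cells. Only 39.9% of the *Kif23* UMIs lay in mitosis-high cells, the lowest share of the 50. *Kif23* was also the only member higher in Cpa3-high than in Cpa3-low Em-Ex cells, at 45.7 CPM against 34.8 CPM (1.31-fold, 1.19–1.45), while in YS-Ex it was at 58.9 CPM and 66.6 CPM (0.886-fold, 0.734–1.08). Over cells, the gene with the highest correlation to *Kif23* among 4701 was *Rplp1* (r = 0.218), a ribosomal protein gene at 9327 CPM in Em-Ex against 10550 CPM in YS-Ex. In the GENCODE M21 annotation of GRCm38, *Rplp1* (chr9:61913284-61914542) and *Kif23* (chr9:61915905-61946774) lie on the same strand with 1362 bases between them, *Rplp1* downstream. The next highest was a member, *Hmmr* (r = 0.181). Whether transcripts of *Rplp1* have a part in the *Kif23* counts was not tested.

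**Figure D3:**
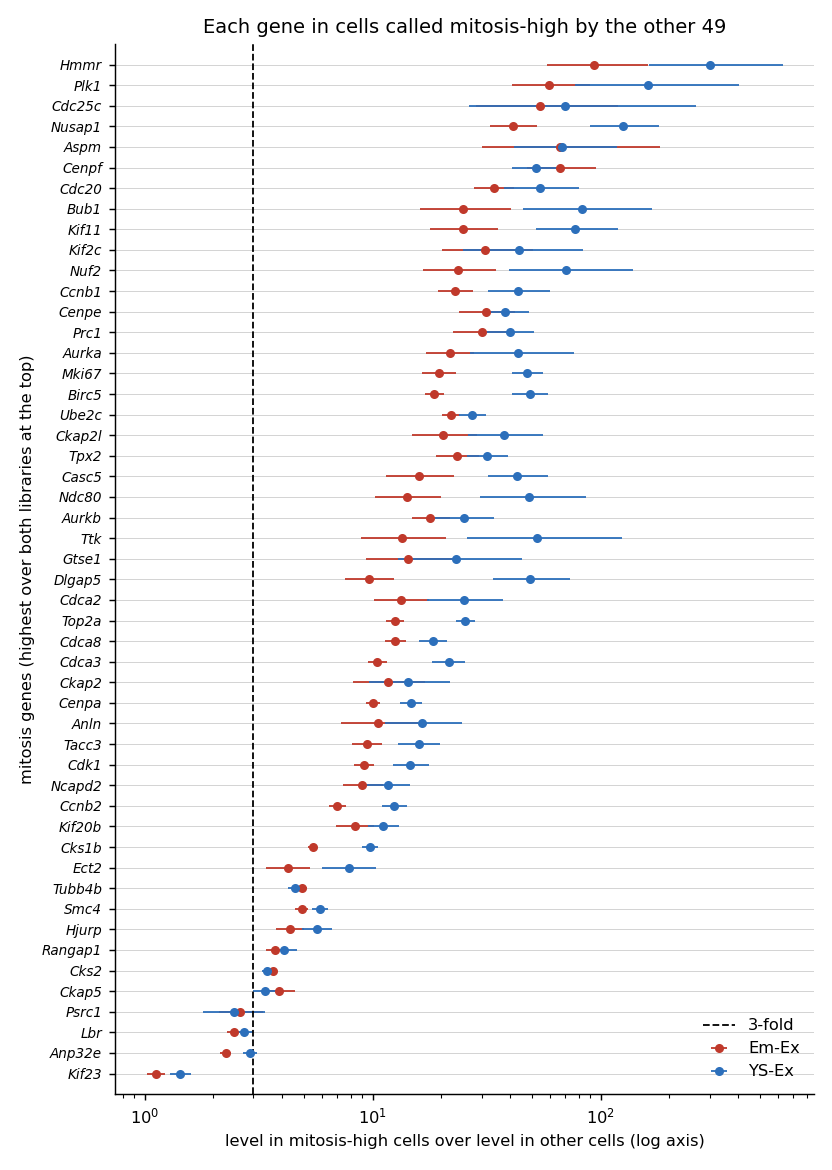
Level of each mitosis gene in cells that the other 49 call mitosis-high over its level in the other cells (x axis, log scale), with 95% counting intervals, in Em-Ex (red) and YS-Ex (blue), and the 3-fold limit dashed. *Kif23* lies at the bottom, at 1.12-fold in Em-Ex and 1.43-fold in YS-Ex, and *Hmmr* at the top at 93.4-fold in Em-Ex and 300-fold in YS-Ex.

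Between the libraries the 50 genes did not move together. In Em-Ex against YS-Ex 21 of the 50 were past 1.5-fold higher, where 15.6% of all 8499 genes compared were, and 4 were past it lower (22.2% of all genes). The median ratio of the members was 1.31, and that of all genes was 0.989. Of the members, 23 lay over 1.5-fold away from the members' own median. No like count was made for all genes around theirs, so this spread is not read as a trait of the members.

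The kinases and cyclins that drive entry stood high in Em-Ex. *Aurka*, the kinase of the spindle poles, was at 33.8 CPM (32.0–35.5) in Em-Ex against 9.36 CPM (8.24–10.6) in YS-Ex (3.61-fold, 3.15–4.14). *Cdk1* was at 81.0 CPM and 31.1 CPM (2.60-fold, 2.42–2.81), and its cyclin *Ccnb1* at 64.4 CPM and 24.6 CPM (2.62-fold, 2.40–2.85). *Cdc25c* was at 9.80 CPM against 3.44 CPM, *Plk1* at 33.3 CPM against 13.5 CPM, and *Aurkb*, the kinase of the passenger complex, at 42.0 CPM against 17.6 CPM. In all, 8 of the 11 genes of this group were past 1.5-fold higher (15.6% of all genes), with a median ratio of 2.38, and 7 of them were so relative to genes of like length, where *Ccnb2* went from 1.69 to 1.34. The other three were the checkpoint kinases *Bub1* (0.964, 0.832–1.12) and *Ttk* (1.37, 1.12–1.68), and *Cks2* (1.42, 1.38–1.46).

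All 3 genes listed under the APC/C and degradation were past 1.5-fold higher in Em-Ex (15.6% of all genes), also relative to genes of like length. *Cdc20*, the activator that hands substrates to the APC/C, was at 73.4 CPM (70.9–76.1) in Em-Ex against 20.9 CPM (19.2–22.7) in YS-Ex (3.51-fold, 3.21–3.84). *Ube2c*, the ubiquitin-conjugating enzyme of the same complex, was at 240 CPM and 84.4 CPM (2.84-fold, 2.71–2.97), and *Cdca3* at 103 CPM and 47.1 CPM (2.19-fold, 2.06–2.33).

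Of the 9 genes of the centromere and the passenger complex, 4 were past 1.5-fold higher (15.6% of all genes) and 1 lower (22.2%). *Birc5* was at 170 CPM in Em-Ex against 76.4 CPM in YS-Ex (2.22-fold, 2.11–2.33), *Cenpa*, the histone H3 variant of centromeres, at 174 CPM and 79.1 CPM (2.20-fold, 2.10–2.31), and *Cdca8*, the passenger subunit borealin, at 107 CPM and 57.0 CPM (1.88-fold). *Nuf2* of the Ndc80 complex was also past 1.5-fold, at 16.1 CPM against 10.4 CPM. *Casc5*, now named *Knl1*, the kinetochore scaffold for the checkpoint, went the other way, at 13.1 CPM (12.0–14.2) in Em-Ex against 26.0 CPM (24.1–28.0) in YS-Ex (0.504-fold, 0.451–0.564). Relative to genes of like length *Cdca8* (1.48), *Nuf2* (1.36) and *Casc5* (0.780) were not past 1.5-fold. The large kinetochore proteins *Cenpe* (0.845) and *Cenpf* (1.01), *Ndc80* (1.26) and the *Cenpa* chaperone *Hjurp* (0.939) lay between.

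Among the 14 spindle and kinesin genes 4 were past 1.5-fold higher (15.6% of all genes) and 2 lower (22.2%), and the 2 were not past it relative to genes of like length. *Tubb4b*, a beta tubulin, was at 229 CPM in Em-Ex against 118 CPM in YS-Ex (1.95-fold), and *Kif2c* (1.85-fold), *Tacc3* (1.76-fold) and *Gtse1* (1.73-fold) followed. *Ckap5* was at 20.7 CPM against 38.8 CPM (0.534-fold, 0.487–0.584) and *Aspm* at 8.0 CPM against 14.3 CPM (0.560-fold, 0.483–0.650). The motor *Kif11*, which pushes the spindle poles apart, was at 18.9 CPM against 24.6 CPM (0.768-fold, 0.692–0.852).

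Of the 8 genes of chromosome structure and the nuclear envelope, *Cdca2* (1.60-fold) and *Rangap1* (1.54-fold), the GTPase activator of Ran, were past 1.5-fold higher (15.6% of all genes), and *Mki67* was past it lower (22.2%). *Mki67* encodes the chromosome coat protein Ki-67, the usual stain for dividing cells, and it was at 55.5 CPM (53.3–57.8) in Em-Ex against 101 CPM (96.9–104) in YS-Ex (0.551-fold, 0.522–0.583), which came to 1.02 relative to genes of like length. *Top2a*, the topoisomerase that untangles chromosomes, was at 132 CPM and 162 CPM (0.817-fold, 0.785–0.850). The condensin genes *Smc4* (1.23-fold) and *Ncapd2* (1.23-fold) came to 1.64 each relative to genes of like length. None of the 5 cytokinesis genes passed 1.5-fold, though *Ect2* (1.14) came to 1.52 relative to like length, and their median ratio was 0.768, with *Prc1*, the midzone bundling protein, at 29.6 CPM against 38.5 CPM and *Kif20b* at 24.0 CPM against 34.6 CPM. *Prc1*, *Kif11* and *Top2a* changed side when the 5% of cells of each library with the most UMIs were left out, a setting chosen after seeing the data. Their intervals then spanned no difference.

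**Figure D4:**
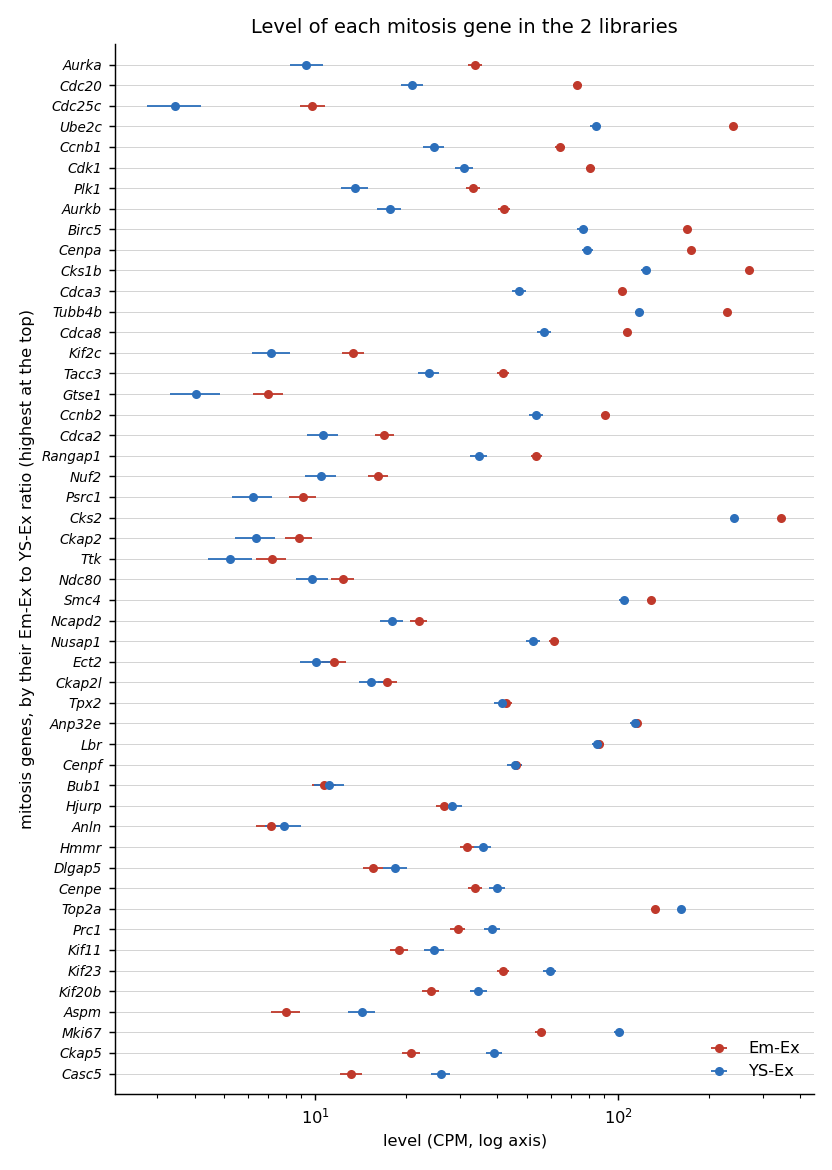
Level of each of the 50 mitosis genes (x axis, CPM on a log scale) in Em-Ex (red) and YS-Ex (blue) with exact Poisson 95% intervals, ordered by the ratio of Em-Ex to YS-Ex. The order runs from *Aurka* (3.61-fold) at the top to *Casc5* (0.504-fold) at the bottom, and the libraries change places near *Cenpf* (1.01-fold).

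The median ratio between the libraries was lower in each longer class of transcripts above 1000 bases over all genes, members included. Length was taken as that of the longest protein-coding transcript in GENCODE M21, which was found for all 50 members and 95.1% of the genes of the table, and which need not be the transcript these cells use. Over all 8329 genes compared with a length, the median ratio of Em-Ex to YS-Ex was 1.12 for transcripts under 1000 bases, 1.27 for 1000 to 2000 bases, 1.14 for 2000 to 3000 bases, 0.957 for 3000 to 4000 bases, 0.749 for 4000 to 6000 bases, 0.647 for 6000 to 8000 bases and 0.539 at 8000 bases or more. Over genes, Spearman's rho between length and ratio was -0.512 for all genes and -0.764 for the 50 members, as a description, since genes of 1 library pair are not independent. The 22 members under 3000 bases had ratios of 1.26 to 3.61, and 17 of them were past 1.5-fold higher, where 24.5% of all genes of such length were. Of the 28 members at 3000 bases or more, 4 were past it higher (*Rangap1*, *Birc5*, *Cdca2* and *Cdk1*), against 7.01% of all genes of such length, and all 4 members past it lower were here, against 37.3%. Those 4 were *Ckap5* (6665 bases), *Casc5* (7800 bases), *Aspm* (9867 bases) and *Mki67* (10061 bases).

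**Figure D5:**
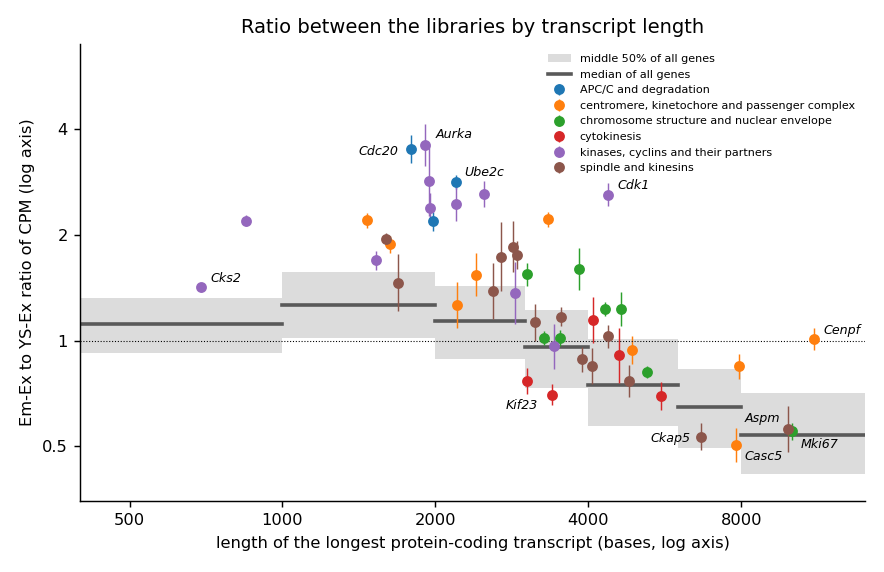
Ratio of Em-Ex to YS-Ex CPM (y axis, log scale) against transcript length (x axis, bases, log scale) for the 50 mitosis genes, coloured by role, with 95% counting intervals, over the median (dark line) and the middle 50% (grey) of all genes in each class of length. The median over all genes is 1.12 under 1000 bases and runs from 1.27 at 1000 to 2000 bases to 0.539 at 8000 bases or more, with *Mki67* and *Aspm* at the median of their class and *Cdc20*, *Aurka*, *Ube2c*, *Cdk1* and *Cenpf* above the middle 50%.

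Read relative to the median of all genes of like length, a scale chosen after seeing the data, 22 members were past 1.5-fold higher in Em-Ex (13.8% of all genes) and 0 lower (14.0% of all genes). Of the 21 higher before, 18 stayed past it, *Cdca8*, *Nuf2* and *Ccnb2* did not, and *Cenpf*, *Smc4*, *Ncapd2* and *Ect2* were added. *Cdk1* then stood highest at 3.48, followed by *Aurka* (2.84), *Cdc20* (2.77), *Ube2c* (2.50), *Birc5* (2.32) and *Ccnb1* (2.31). *Mki67* came to 1.02, *Aspm* to 1.04, *Top2a* to 1.09, *Casc5* to 0.780 and *Ckap5* to 0.825, while *Kif23* stayed low at 0.734. *Cenpf*, the longest of the members at 11130 bases, moved from 1.01 to 1.88. Between Cpa3-high and Cpa3-low cells of 1 library, rho over all genes was -0.00678 in Em-Ex and -0.0205 in YS-Ex, while over the 50 members it was -0.106 in Em-Ex and -0.405 in YS-Ex. A difference of tissue and a difference of library preparation or RNA quality cannot be told apart with 1 library each.

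The summed levels and the shares were therefore also read from short and from long members apart. From the 22 members under 3000 bases, the level was 1932 CPM in Em-Ex against 967 CPM in YS-Ex (2.00-fold, 1.97–2.03), and from the 28 longer members 1323 CPM and 1280 CPM (1.03-fold, 1.02–1.05). The share of mitosis-high cells was 32.9% in Em-Ex and 15.9% in YS-Ex by the short members and 33.9% and 24.0% by the long members, a difference of 17.0 points (14.7–19.2) and 9.84 points (7.34–12.3). Within Cpa3-high cells the difference was 9.41 points (7.03–11.8) by the short members and 2.40 points (-0.187 to 4.96) by the long members, and the ratio of summed levels went from 1.66 (1.64–1.69) to 0.851 (0.837–0.866). Within Cpa3-high cells, which library lay higher thus depended on the members read. The difference of Cpa3-high from Cpa3-low cells kept its direction, at -31.4 and -33.0 points in Em-Ex by short and by long members and at -19.5 and -28.2 points in YS-Ex.

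In Cpa3-high against Cpa3-low cells the members lay mostly on 1 side. In Em-Ex 43 of the 50 were past 1.5-fold lower in Cpa3-high cells (28.1% of all 8353 genes compared) and 0 were past it higher (13.8%), with a median ratio of 0.502 against 0.857 for all genes. In YS-Ex 45 were past it lower (18.0% of all 8744 genes) and 0 higher (7.67%), with a median of 0.418 against 0.921. *Top2a* was at 76.9 CPM in Cpa3-high and 231 CPM in Cpa3-low Em-Ex cells (0.333-fold, 0.315–0.352), and at 141 CPM and 460 CPM in YS-Ex (0.307-fold, 0.284–0.331). The condensin subunit *Ncapd2* had the lowest ratio in Em-Ex, at 10.2 CPM against 43.1 CPM (0.236-fold), and *Nusap1* in YS-Ex, at 44.2 CPM against 170 CPM (0.260-fold). In *Mki67* the ratio was 0.625 (0.576–0.678) in Em-Ex and 0.301 (0.274–0.332) in YS-Ex, where the Cpa3-low cells reached 290 CPM against 73.0 CPM in those of Em-Ex. Between the libraries, genes of 8000 bases or more, *Mki67* among them, had a median ratio of Em-Ex to YS-Ex of 0.539 over all cells.

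Over 1.5-fold off the members' own median in this comparison were 6 members in Em-Ex and 9 in YS-Ex. No like count was made for all genes. Over 1.5-fold above the members' median in Em-Ex were *Kif23* (1.31), *Ccnb2* (0.864), *Anp32e* (0.816) and *Ect2* (0.763), the exchange factor that starts the cleavage furrow, and *Top2a* and *Ncapd2* lay as far below. In YS-Ex *Kif23* (0.886), *Anp32e* (0.747), *Cks2* (0.707), *Tubb4b* (0.695), *Ccnb2* (0.691), *Lbr* (0.653), *Ckap2* (0.646) and *Ckap5* (0.631) lay above and *Nusap1* below. *Kif23*, *Anp32e* and *Ccnb2*, the second B cyclin, were above in both libraries. *Ccnb2* was at 86.0 CPM in Cpa3-high and 99.6 CPM in Cpa3-low Em-Ex cells, where *Ccnb1* was at 51.0 CPM and 88.3 CPM (0.578-fold, 0.536–0.623).

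Within Cpa3-high cells alone more members than genes at large were past 1.5-fold higher in Em-Ex, and the share past it lower was near that of all genes. Of the 48 with enough UMIs to be compared, 16 were past 1.5-fold higher in Em-Ex (8.20% of all 8291 genes) and 10 were past it lower (24.1%), with a median of 0.994. All 3 degradation genes and 8 of 10 kinases and cyclins were past it higher, led by *Cdc20* at 52.7 CPM against 19.2 CPM and *Aurka* at 20.3 CPM against 8.40 CPM. *Aspm*, *Mki67*, *Prc1*, *Casc5*, *Top2a*, *Bub1*, *Kif11*, *Kif20b*, *Ckap5* and *Ncapd2* were past it lower. Relative to genes of like length, 11 were past it higher (9.20% of all genes) and 1 lower (12.8%), which was *Prc1* at 0.633, and the kinases and cyclins past it higher were 5 in place of 8, without *Cks1b* (1.47), *Ccnb2* (1.36) and *Aurkb* (1.30). As a description, since the class was cut from the members, 4 were past 1.5-fold higher (13.4% of all genes) and 21 lower (22.4%) in Em-Ex than in YS-Ex mitosis-high cells. *Aurka* (1.94-fold), *Cdc20* (1.90-fold), *Ube2c* (1.59-fold) and *Cdc25c* (1.54-fold) were higher in Em-Ex than in YS-Ex among cells mitosis-high by the other genes, where *Mki67* was at 0.292 and *Casc5* at 0.265. Neither these ratios nor the counts in mitosis-high cells were read relative to genes of like length. Over all cells that scale moved *Mki67* from 0.551 to 1.02 and *Casc5* from 0.504 to 0.780.

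A second list of 55 other mitosis genes, chosen with earlier results of these data known, was read in the same way. Of the 49 that could be compared in Em-Ex against YS-Ex, 26 were past 1.5-fold higher (15.6% of all genes) and 2 lower (22.2%), with a median ratio of 1.57 against 0.989 for all genes, led by *Cdc25b* (2.77), *Pkmyt1* (2.69) and *Fam64a* (2.55) and ending with *Ncapd3* (0.596), *Kif4* (0.617) and *Arhgap11a* (0.668). Of the 28 S phase genes, 17 were past it higher and 2 lower with a median of 1.97, from *Ung* (2.98), *Cdt1* (2.66) and *Chaf1b* (2.51) to *Pola1* (0.605), *Ccne2* (0.610) and *Clspn* (0.783). Relative to genes of like length, 28 of the other mitosis genes were past it higher and 1 lower, as were 21 and 1 of the S phase genes (13.8% and 14.0% of all genes). Between Cpa3-high and Cpa3-low cells, 44 of 53 compared other mitosis genes were past 1.5-fold lower in Cpa3-high Em-Ex cells (28.1% of all genes) and 46 of 50 in those of YS-Ex (18.0%), with 0 higher, as were 22 and 25 of the 28 S phase genes.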

How the data were processed

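Cells sorted from embryonic (Em-Ex) and yolk sac (YS-Ex) explants were captured on the 10X Chromium, 1 library each. The authors deposited 1 table of UMI counts of 11691 genes in 6541 barcodes, and every column was mapped to a library by its name. The submitters' processing notes name Cell Ranger 2.0.1, bcl2fastq 2.19.1.403 and mm10.

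Barcodes with 1000 to 5000 genes and at most 5% of UMIs from 13 mitochondrial genes were kept, which left 42752370 UMIs in Em-Ex and 27031627 in YS-Ex. No doublet caller was run. The upper limit on genes is the study's own step against doublets, and it was applied here, since the deposited table held 82 (Em-Ex) and 34 (YS-Ex) barcodes above it. UMIs were summed over cells and given per 1000000 (CPM). For shares, cells were thinned to 3000 UMIs (fixed seed), and the cuts came from Otsu's method. No cell kept was shallower than that. Intervals are exact Poisson for sums, conditional binomial for ratios of sums, Clopper-Pearson for shares and Newcombe for differences of shares, all at 95% and for counting error only. With 1 library per condition, no test was run and differences were read by size, past 1.5-fold, among genes with a mean of at least 5 CPM. A member was held to depart from the others when its ratio in cells mitosis-high by the other 49 was under 3, or when it lay over 1.5-fold off the members' median. Calculations used Python 3.11.15, numpy 2.4.6, scipy 1.17.1 and pandas 2.3.3, and figures matplotlib 3.10.9. The steps were tested on simulated counts.

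The members, lists and markers were chosen with earlier results of these data known. Named were all members, the 10 other genes with the highest correlation, *Cpa3* and *Mpo*, and the 3 highest and lowest of each list. *Racgap1*, *Rplp1* and *Kit* were named after their values were seen. The alternatives varied the cell filter, cut, thinning, scaling, *Cpa3* cut, fold, minimum and members.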

Additional observations from a re-analysis of the deposited data

Results flagged for a closer look

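*Kif23* lay on opposite sides of 1 in the libraries when Cpa3-high were set against Cpa3-low cells, at 1.31-fold in Em-Ex (1.19–1.45) and 0.886-fold in YS-Ex (0.734–1.08). The difference between the libraries was not tested, and the YS-Ex interval includes 1.

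Barcodes that the filter removed also held mitosis gene transcripts. Of those with over 5000 genes, 78 of 82 (95.1%, 88.0–98.7%) were mitosis-high in Em-Ex, as were 31 of 34 YS-Ex barcodes (91.2%, 76.3–98.1%), with a median of 39280 and 37084 UMIs. Of those with over 5% mitochondrial UMIs and 5000 genes or fewer, 56 of 351 (15.9%, 12.3–20.2%) were mitosis-high in Em-Ex, as were 90 of 916 YS-Ex barcodes (9.82%, 7.97–11.9%), with a median of 5951 and 6024 UMIs. No control library gives a background for these shares.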

How the results depend on the processing

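No paired analysis was possible because each condition had 1 library, and for the same reason no replicate could be left out. Of the values of the main comparisons over 24 alternatives, 158 stayed within their counting interval (a count within 1.5 times), 59 moved by more and 1 reversed. With barcodes found in both libraries left out, all stayed within it. Levels below are log2 ratios of the summed level, in the order Em-Ex against YS-Ex, Cpa3-high against Cpa3-low in Em-Ex, the same in YS-Ex, and Em-Ex against YS-Ex in Cpa3-high cells, and those not given stayed within their interval.

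With no upper limit on genes the first, second and last were 0.49, -0.93 and 0.18. With a mitochondrial limit of 10% they were 0.62, -0.90, -1.20 and 0.35. With every deposited barcode of at least 3000 UMIs the first 3 were 0.58, -0.96 and -1.20. Without the 8 broadly expressed members the third was -1.24 and 2 members departed. As a mean over cells the second and the last were -0.99 and 0.29. Without the 50 genes with the most UMIs they were 0.49, -0.81, -1.08 and 0.25. With a *Cpa3* cut of 20 the second was -0.90 and the share differences -40.3 and -32.6 points, and with a cut of 80 the last 3 levels were -1.03, -0.95 and 0.091, with share differences of -29.9 points in Em-Ex and 4.49 points between libraries.

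With a cut of 40 member UMIs per 10000 on unthinned cells, the share differed by 10.9 points between libraries and -23.3 points by *Cpa3* in Em-Ex, and with a cut of 80 by 2.75, -8.98, -11.1 and, in Cpa3-high cells, 0.954 points, whose interval includes 0. With a minimum of 20 CPM 2 members were past 1.5-fold lower in Em-Ex, and 5 in Cpa3-high cells. At 2-fold 12 were higher and 0 lower in Em-Ex, 24 lower in Cpa3-high Em-Ex cells, and 7 higher and 2 lower in Em-Ex within Cpa3-high cells. With 2 in place of 3 as the limit, 1 member departed.

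The next 4 settings were chosen after seeing the data. From members under 3000 bases the levels were 0.998, -0.82, -0.93 and 0.73, and from longer members 0.048, -0.94, -1.28 and -0.23, the last reversed, with share differences between libraries of 9.84 points and, in Cpa3-high cells, 2.40 points.

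Relative to genes of like length, 0 members were lower in Em-Ex, 1 was higher in Cpa3-high Em-Ex cells (*Kif23*) and 1 was lower in Em-Ex within Cpa3-high cells. By log2 ratio *Aspm* (0.057), *Mki67* (0.034), *Cenpe* (0.39), *Top2a* (0.12), *Kif11* (0.036) and *Dlgap5* (0.18) changed side between libraries, *Ccnb2* (0.037) between *Cpa3* classes in Em-Ex, and *Cenpf* (0.58), *Mki67* (0.044), *Cenpe* (0.17), *Tpx2* (0.16), *Anln* (0.057), *Dlgap5* (0.16) and *Hjurp* (0.0027) within Cpa3-high cells.

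Without the 5% of cells with the most UMIs the levels were 0.74, -0.81, -0.89 and 0.50, 2 members were lower in Em-Ex and 3 within Cpa3-high cells, and the share differed by -30.6 points by *Cpa3* in Em-Ex. *Hmmr* (0.10), *Prc1* (0.0045), *Cenpe* (0.087), *Top2a* (0.053), *Kif11* (0.18) and *Dlgap5* (0.048) changed side between libraries, and *Cenpf* (0.0031) and *Tpx2* (0.030) within Cpa3-high cells. The intervals of all these values span no difference. The cause of these changes was not tested.

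One library per condition limits every difference between Em-Ex and YS-Ex. With 141 cells, the YS-Ex Cpa3-low class gives wider intervals than the other *Cpa3* classes on either side of the cut.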
